A study of Homo sapiens with 2 samples.

Results

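Fatty acid synthesis and desaturation is represented here by 10 genes, ACLY, ACACA, FASN, SCD, SCD5, ELOVL6, FADS1, FADS2, SREBF1 and SREBF2, picked by symbol from the 26485 genes of the count table. All 10 were listed and all 10 passed the filter on low counts. The samples are the human leiomyosarcoma lines SK-LMS-1 (1 library of total RNA) and SK-UT-1 (likewise), cultured with the solvent DMSO alone, and the libraries were made with a stranded kit. Leiomyosarcoma is a malignant tumour of smooth muscle. SK-LMS-1 is known as a line from a tumour of the vulva and SK-UT-1 as one from the uterus. No engineered genetic change or active drug separates the groups, so the comparison is between the lines themselves, with whatever genetic differences they carry. Each line stands for 1 tumour, and cell line and library cannot be told apart. The study concerns inhibitors of the histone methyltransferase SUV39H2 and of poly(ADP-ribose) polymerase, and the comparison of the solvent cultures asks how the lines differed without them.

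Cells make fatty acids from citrate. ATP citrate lyase (ACLY) releases acetyl-CoA in the cytosol, acetyl-CoA carboxylase (ACACA) turns it into malonyl-CoA, and fatty acid synthase (FASN) assembles palmitate. ELOVL6 lengthens palmitate to stearate, SCD and SCD5 place the first double bond in saturated chains, and FADS1 and FADS2 desaturate polyunsaturated chains. The transcription factors SREBP-1 and SREBP-2, encoded by SREBF1 and SREBF2, switch on these genes and those of cholesterol synthesis when membranes run low in sterol. Tumour cells are known for making fatty acids even where the blood supplies them.

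Depth was 6906280 counts in SK-LMS-1 against 7635850 in SK-UT-1. Levels are given in CPM, which are counts divided by the library's size in units of 1e+06, with sizes scaled by edgeR's trimmed mean method (TMM). Log2 ratios are positive where SK-LMS-1 was higher, and each fold is followed in parentheses by its 95% limits, exact and from the conditional binomial distribution. The interval covers counting error only. With 1 library per line there is no replicate check, no test was made and no p-value is given. The smooth muscle genes were uneven between the lines. Of 10 markers, 8 were measured at 1 CPM or more in at least 1 line, MYOCD was at 0 counts in both, and MYH11 stood at 5 and 2 counts. Summed over the list, the markers reached 1055 CPM against 519 CPM for SK-UT-1, most of it CALD1 at 749 and 343 CPM and SMTN at 216 and 109 CPM. TAGLN was higher in SK-LMS-1 (61.8 and 5.34 CPM) and ACTA2 in SK-UT-1 (10.5 and 54.0 CPM). Of markers of cell types that make or store fat, 5 of 8 adipocyte genes, ADIPOQ and LEP among them, and 4 of 6 hepatocyte genes were at 0 counts in both lines, while the lipid droplet gene PLIN1 had 55 counts in SK-LMS-1 against 0 in SK-UT-1. Summed, the adipocyte markers came to 10.2 CPM (SK-LMS-1) against 0.248 CPM (SK-UT-1), and the hepatocyte markers to 0.153 and 0.373 CPM. Their part in the differences below was not tested. The libraries are bulk RNA, so a smaller share of cells with a transcript and less of it per cell cannot be told apart.

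The enzymes that build palmitate and the factor SREBF1 were higher in SK-UT-1, while the elongase ELOVL6 and, by less, SREBF2 were higher in SK-LMS-1. At a size rule of 2-fold, 6 of the 10 genes differed between the lines, beside 40.2% of the 14324 measured genes. Of them, 5 (ACLY, FASN, SCD5, FADS2 and SREBF1) were higher in SK-UT-1, beside 18.3% of measured genes. ELOVL6 was the 1 gene past 2-fold towards SK-LMS-1, beside 21.9% of measured genes, and the other 4 lay within 2-fold. The median log2 ratio of the 10 genes was -1.04, where that of all measured genes was 0.01. For 4 of the 5 genes higher in SK-UT-1 the whole interval lay beyond 2-fold, as it did for 10.1% of measured genes, SCD5 being the exception. For ELOVL6 it did too, as for 15.1% of measured genes towards SK-LMS-1. The summed share of the 10 genes was 0.0873% for SK-LMS-1 (exact Clopper-Pearson 95% interval 0.0851 to 0.0895) against 0.138% in SK-UT-1 (0.135 to 0.140).

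**Figure D1:**
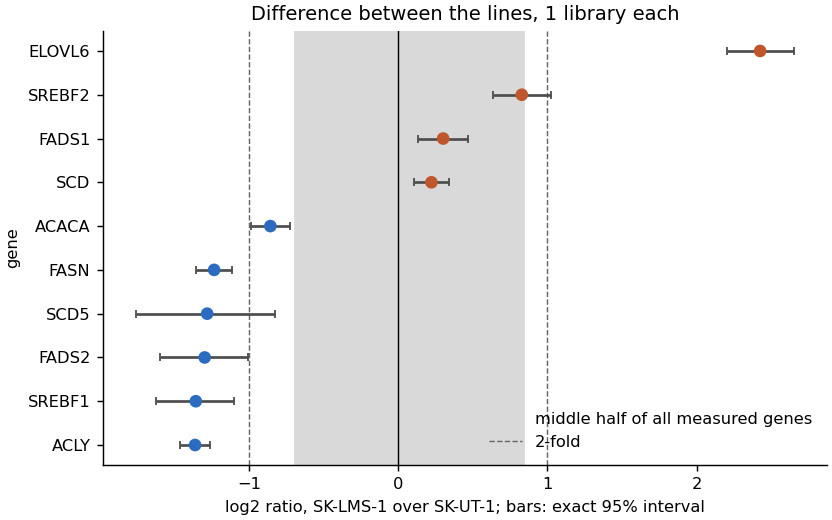
Log2 ratio (SK-LMS-1 / SK-UT-1) of each of the 10 genes with exact 95% intervals from 1 library per line (orange, higher in SK-LMS-1, blue, higher in SK-UT-1). The dashed lines mark 2-fold and the grey band runs from the lower to the upper quartile of the 14324 measured genes (-0.69 to 0.85). ACLY, SREBF1, FADS2, SCD5 and FASN lie together between -1.36 and -1.23, and ELOVL6 stands alone at 2.42.

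The pair of regulatory genes pointed in opposite directions. SREBF1, whose product SREBP-1 acts mainly on fatty acid genes, had 161 counts (24.6 CPM) in SK-LMS-1 against 506 counts (62.9 CPM) in SK-UT-1. It was thus 2.56-fold more abundant in SK-UT-1 (2.14 to 3.07). SREBF2, whose product SREBP-2 acts mainly on cholesterol genes, had 532 counts (81.2 CPM) in SK-LMS-1 against 368 counts (45.7 CPM) in SK-UT-1. It was 1.78-fold more abundant in SK-LMS-1 (1.55 to 2.03), an interval that reaches just past 2-fold. Counted per base of exon, SREBF1 made up 25.9% of the sum of both genes in SK-LMS-1 (22.6 to 29.5, exact Clopper-Pearson 95% interval) against 61.4% in SK-UT-1 (58.1 to 64.6). SREBF2 was therefore the more abundant transcript of the pair in SK-LMS-1, and SREBF1 in SK-UT-1. SREBF1 is placed at 17811349 to 17837011 on chromosome 17 (minus strand), and SREBF2 at 41833079 to 41907308 on chromosome 22 (plus strand), in the hg38 coordinates of the table. RAI1 covers 2.06% of the exon bases of SREBF1 on the other strand.

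The promoters of these factors with opposite ratios, and of ACLY, the enzyme gene with the largest ratio towards SK-UT-1, are shown because they carry different sets of binding letters. They come from the RefSeq table (build GRCh38.p14), which held 9 of the 10 genes, and start 250 bases before the annotated start. FASN had no entry, so its promoter was not searched. Bases inside an exon of the gene were left off. Capitals mark the sterol regulatory element core TCACNCCAC, the E-box CACGTG, the CCAAT box CCAAT and the GC box GGGCGG, searched on both strands and allowed to overlap.
SREBF1, chr17:17837012-17837236, minus strand: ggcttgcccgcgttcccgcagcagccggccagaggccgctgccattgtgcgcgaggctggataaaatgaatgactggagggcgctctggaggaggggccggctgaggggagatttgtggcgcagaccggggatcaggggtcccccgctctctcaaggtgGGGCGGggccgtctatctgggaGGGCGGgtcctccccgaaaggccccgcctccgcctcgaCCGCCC
SREBF2, chr22:41832855-41833078, plus strand: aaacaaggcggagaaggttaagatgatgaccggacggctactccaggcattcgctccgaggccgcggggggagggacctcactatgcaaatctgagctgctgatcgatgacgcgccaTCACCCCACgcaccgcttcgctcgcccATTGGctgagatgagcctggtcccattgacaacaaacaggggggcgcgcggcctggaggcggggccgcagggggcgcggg
ACLY, chr17:41919023-41919272, minus strand: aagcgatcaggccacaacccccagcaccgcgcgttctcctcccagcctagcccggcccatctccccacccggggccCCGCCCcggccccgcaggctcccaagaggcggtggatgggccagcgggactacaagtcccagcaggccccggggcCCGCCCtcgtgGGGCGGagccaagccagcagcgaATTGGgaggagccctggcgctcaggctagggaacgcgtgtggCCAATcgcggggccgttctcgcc
In the stretch of SREBF2 the sterol element core begins 133 bases and a CCAAT box 106 bases before the annotated start. The full 250 bases of SREBF2 also hold 2 GC boxes, which were lost with the 26 exon bases left off. The stretch of SREBF1 holds 3 GC boxes and none of the other motifs, and that of ACLY holds 3 GC boxes and 2 CCAAT boxes. Over the 35116 entries of the table, with the same 250 bases searched, the sterol element core was found in 0.883%, the E-box in 6.34%, the CCAAT box in 32.0% and the GC box in 42.6%. Among the 9 genes with an entry, SREBF2 alone had the sterol element core, 0 had an E-box, 5 had a CCAAT box and 9 a GC box in at least 1 entry. These are matches of letters and not bound sites, and only stretches before listed starts were searched. A start of SREBF1 or of another gene that is not listed was not covered.

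Both factor genes also carry a microRNA outside their exons, known to act on lipid genes. The mature 5p forms are shown with the seed, bases 2 to 8, in capitals, because the seed is the same in both.
hsa-miR-33a-5p, within SREBF2: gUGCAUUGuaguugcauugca
hsa-miR-33b-5p, within SREBF1: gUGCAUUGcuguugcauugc
The hairpin genes MIR33A and MIR33B were at 0 counts in both libraries. Whether these libraries retain RNA as short as the mature forms, of 21 and 20 bases, was not tested. The 0 counts therefore give no level of either microRNA. The floor of 3 counts used for ratios equals 0.458 CPM in SK-LMS-1 against 0.373 CPM in SK-UT-1.

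The enzymes on the way to palmitate were all higher in SK-UT-1. ACLY had 1081 counts (165 CPM) in SK-LMS-1 against 3409 counts (424 CPM) in SK-UT-1. At 2.57-fold (2.40 to 2.75) it had the largest ratio towards SK-UT-1 of the 10 genes, although the intervals of SREBF1, FADS2, SCD5 and FASN overlap its own. FASN, which assembles the chain, had 756 counts (115 CPM) and 2182 counts (271 CPM), which is 2.35-fold more abundant in SK-UT-1 (2.16 to 2.56). ACACA, the carboxylase between them, had 685 counts (105 CPM) and 1523 counts (189 CPM). It was 1.81-fold more abundant in SK-UT-1 (1.65 to 1.98), short of the size rule. ACACA is listed on chromosome 17 and again on an alternative sequence of the same region, so fragments that align to both copies may be missing from its counts in both lines. ACLY, FASN and ACACA all lie on the minus strand of chromosome 17, ACLY at 41866917 to 41919022, FASN at 82078338 to 82098230 and ACACA at 37084992 to 37406811.

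ELOVL6 went the other way and by more. The gene had 905 counts (138 CPM) in SK-LMS-1 against 207 counts (25.7 CPM) in SK-UT-1, which makes it 5.37-fold more abundant in SK-LMS-1 (4.61 to 6.28). It was the 1 gene of the 10 past 4-fold, and its interval overlaps that of no other member. The line with more ACLY and FASN transcript thus had less of the elongase that acts on their product. ELOVL6 lies at 110049073 to 110198664 on chromosome 4 (minus strand).

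The stearoyl-CoA desaturases differed in unequal measure. SCD, the main form in most tissues, had 1147 counts (175 CPM) in SK-LMS-1 against 1207 counts (150 CPM) in SK-UT-1. The lines were close, with SCD 1.17-fold more abundant in SK-LMS-1 (1.08 to 1.27), and the log2 interval includes 0 when libraries are scaled by their totals (-0.05 to 0.19). SCD5, a form found in primates and some other mammals and best known from brain, had 53 counts (8.09 CPM) and 158 counts (19.6 CPM). It was the least abundant of the 10 genes and 2.43-fold more abundant in SK-UT-1 (1.77 to 3.38). Per base of exon, SCD5 made up 5.56% of the sum of SCD5 and SCD in SK-LMS-1 (4.20 to 7.19) against 14.3% in SK-UT-1 (12.3 to 16.5). SCD remained the larger part of the pair in both lines. SCD lies at 100347015 to 100364831 on chromosome 10 (plus strand), and SCD5 at 82629537 to 82798857 on chromosome 4 (minus strand).

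The polyunsaturated desaturases FADS1 and FADS2, neighbours that are read in opposite directions on chromosome 11, also differed unequally. FADS1, the delta-5 desaturase, had 580 counts (88.5 CPM) in SK-LMS-1 against 578 counts (71.8 CPM) in SK-UT-1. It was 1.23-fold more abundant in SK-LMS-1 (1.10 to 1.39), and its log2 interval too includes 0 with library totals (-0.02 to 0.32). The same holds with the upper quartile (-0.0009 to 0.34) and with totals without the most abundant genes (-0.02 to 0.32), but not with DESeq2 size factors (0.13 to 0.47). FADS2, the delta-6 desaturase that opens the pathway, had 127 counts (19.4 CPM) and 383 counts (47.6 CPM). It was 2.46-fold more abundant in SK-UT-1 (2.004 to 3.03). FADS1 made up 79.9% of the sum of both per base of exon in SK-LMS-1 (76.6 to 82.9) against 56.8% in SK-UT-1 (53.6 to 60.0). FADS1 spans 61799625 to 61817057 on the minus strand and FADS2 spans 61816203 to 61867354 on the plus strand. Their exons share 142 bases on opposite strands, 3.21% of the exon bases of FADS1 and 3.69% of those of FADS2, and the counting took strand into account. Of genes nearby, FADS3 stood at 32.7 and 19.8 CPM and TMEM258 at 8.70 and 9.57 CPM, so FADS2 had the only ratio past 2-fold among these 4 genes. Of the 67 measured genes within 1 Mb of FADS2, 13 passed 2-fold towards SK-UT-1 and 2 towards SK-LMS-1.

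**Figure D2:**
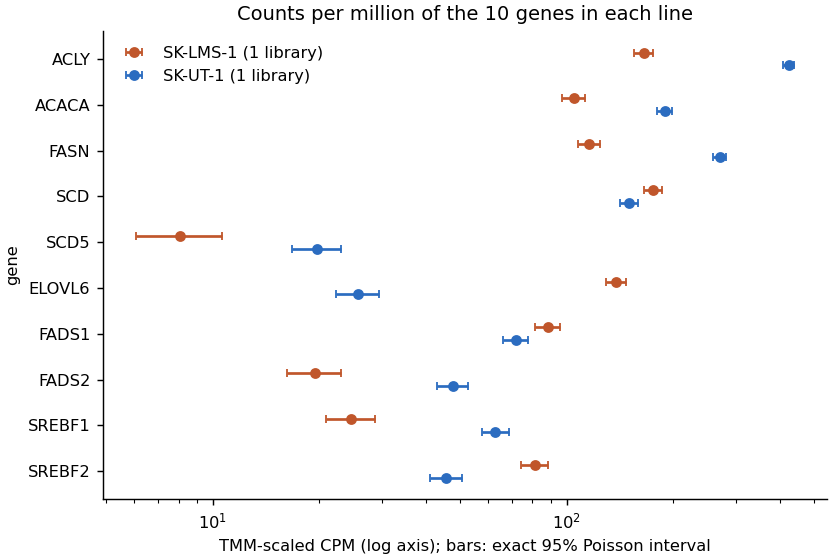
TMM-scaled CPM of the 10 genes on a log axis, 1 library per line, with exact 95% Poisson intervals for counting error. The points of ELOVL6 are the farthest apart, at 138 and 25.7 CPM, and those of SCD the closest, at 175 and 150 CPM.

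**Figure D3:**
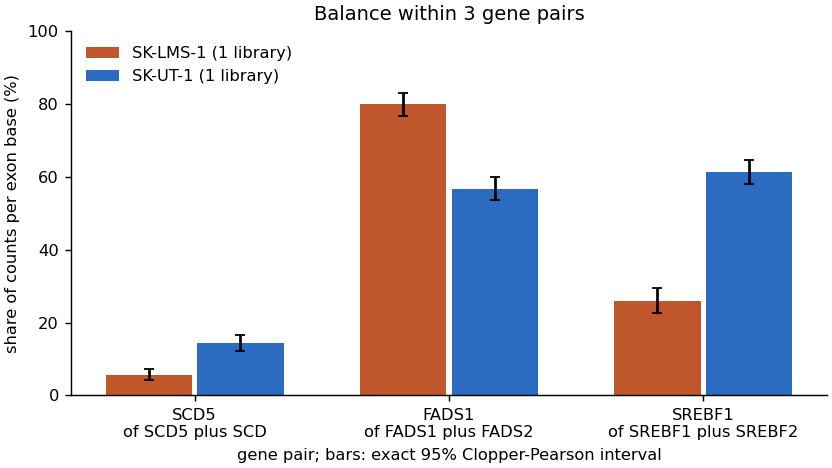
Share of the first gene in the sum of each pair, from counts per base of exon, in percent, with exact Clopper-Pearson 95% intervals and 1 library per line. SREBF1 goes from 25.9% in SK-LMS-1 to 61.4% in SK-UT-1, FADS1 from 79.9% to 56.8%, and SCD5 from 5.56% to 14.3%.

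The order of the genes by level differed between the lines. Levels of different genes were compared as TPM, counts per base of exon scaled to the same sum (1e+06) in each library, with exact Poisson intervals for counting error. In SK-LMS-1 the order began with ELOVL6 at 111 TPM (103 to 118), ACLY at 102 TPM (96.5 to 109) and SCD at 86.9 TPM (81.9 to 92.1), of which ELOVL6 and ACLY overlap in their intervals. FADS1 followed at 54.4 TPM, then SREBF2 at 38.1 and FASN at 37.0 TPM, which overlap, and ACACA at 24.9 TPM. FADS2 at 13.7 and SREBF1 at 13.3 TPM overlap as well, and SCD5 came last at 5.11 TPM. In SK-UT-1 ACLY led at 292 TPM (283 to 302), ahead of FASN at 96.7 TPM (92.6 to 101) and SCD at 82.7 TPM (78.1 to 87.5), with no overlap among them. ACACA at 50.1 and FADS1 at 49.0 TPM overlap, as do SREBF1 at 37.9 and FADS2 at 37.3 TPM, and SREBF2 at 23.8 and ELOVL6 at 22.9 TPM. SCD5 was again last, at 13.8 TPM. ELOVL6 thus held rank 1 of 10 in SK-LMS-1 and rank 9 in SK-UT-1, whereas SCD held rank 3 in both. Among all measured genes ACLY lay at percentile 86.8 of levels in SK-LMS-1 against 96.6 in SK-UT-1, and ELOVL6 at 88.1 and 51.3. ACACA is divided here by the exons of its chromosome 17 copy, and with both copies counted its levels would be 12.5 and 25.1 TPM.

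Genes that feed or accompany the palmitate enzymes mostly lay within 2-fold, as did most measured genes. Of all measured genes, 21.9% passed 2-fold towards SK-LMS-1 and 18.3% towards SK-UT-1. Of 10 measured genes for the supply of acetyl-CoA and NADPH, 2 passed 2-fold towards SK-LMS-1 and 0 towards SK-UT-1, with 8 inside that range and a median log2 ratio of -0.20. By any amount, 3 of the 10 were higher in SK-LMS-1 and the rest in SK-UT-1. ME1, the malic enzyme that yields NADPH for fatty acid synthesis, had 397 counts in SK-LMS-1 against 0 in SK-UT-1. With SK-UT-1 raised to a floor of 3 counts per library the ratio was 163, and the exact interval, taken without that floor, begins at 132-fold. Of 8 measured genes beside ACACA and FASN, 1 was past 2-fold in each direction and 6 lay within it (median -0.12). ACACB, the carboxylase of the mitochondrial surface, was 2.34-fold more abundant in SK-UT-1 (1.79 to 3.10), with 26.1 CPM where the other line had 11.1 CPM. MID1IP1, which promotes the polymerisation of the carboxylase, was 4.18-fold more abundant in SK-LMS-1 (2.95 to 6.05), with 21.8 CPM where the other line had 5.22 CPM.

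Other genes of elongation and desaturation were mostly within 2-fold, again like most measured genes. The shares past it over all measured genes were 21.9% towards SK-LMS-1 and 18.3% towards SK-UT-1. Of 14 measured, 3 passed 2-fold towards SK-LMS-1 and 1 towards SK-UT-1, with 10 inside that range and a median log2 ratio of 0.09. ELOVL2, an elongase of long polyunsaturated chains, was 7.67-fold more abundant in SK-UT-1 (5.69 to 10.6), with 56.2 CPM where the other line had 7.33 CPM. ELOVL4, an elongase of very long chains, had 37 counts in SK-LMS-1 against 0 in SK-UT-1. Its ratio was 15.1 with SK-UT-1 set to the floor of 3 counts (exact interval from 11.7-fold). HACD4, of the dehydratases of chain elongation, had 57 counts in SK-LMS-1 against 2 in SK-UT-1, a ratio of 35.0 from the counts as they stand (9.26 to 296) and of 23.3 with the 2 counts raised to the floor, as plotted with the gene lists.

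Genes that control SREBP and genes of cholesterol synthesis mostly lay within 2-fold too. Their counts past 2-fold stand beside 21.9% of all measured genes towards SK-LMS-1 and 18.3% towards SK-UT-1. In the list of SREBP processing and control, 4 of 15 measured genes passed 2-fold towards SK-LMS-1 and 1 towards SK-UT-1, with 10 inside that range and a median of 0.05. INSIG1, which holds SREBP in the endoplasmic reticulum and is itself a target of SREBP, stood at 156 against 42.4 CPM, with SK-LMS-1 ahead 3.69-fold (3.26 to 4.18). PPARG, a nuclear receptor of fat storage, had 80 against 3 counts, a ratio of 32.8 (10.8 to 162). In the cholesterol list, 3 of 13 genes passed 2-fold towards SK-LMS-1 and 0 towards SK-UT-1, with 10 inside that range and a median of 0.39. Of the 7 measured AMPK genes, whose kinase inhibits the carboxylase, 1 was past 2-fold. That gene, PRKAA2, encodes a form of the catalytic subunit. It was 30.7-fold more abundant in SK-LMS-1 (14.6 to 77.5), with 26.7 CPM where the other line had 0.870 CPM. The other catalytic form, PRKAA1, stood at 249 CPM in SK-LMS-1 against 204 CPM in SK-UT-1, 1.22-fold more abundant in SK-LMS-1 (1.14 to 1.31). The median of the list was 0.29.

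Downstream of synthesis the lines differed in both directions, as they did over all measured genes. There, 21.9% passed 2-fold towards SK-LMS-1 and 18.3% towards SK-UT-1. Among 10 measured genes of fatty acid uptake and activation, 3 passed 2-fold towards SK-LMS-1 and 2 towards SK-UT-1, with 5 inside that range and a median log2 ratio of 0.25. ACSL5, which links fatty acids to coenzyme A, was 89.8-fold more abundant in SK-LMS-1 (43.3 to 225). The fatty acid carrier CD36 had 35 counts in SK-LMS-1 against 0, a ratio of 14.3 against the floor (exact interval from 11.1-fold). The binding protein gene FABP5 was 13.2-fold more abundant in SK-UT-1 (8.28 to 22.2) and ACSL1 2.70-fold (2.28 to 3.22). Of 12 genes of glycerolipid synthesis and storage, 1 passed 2-fold towards SK-LMS-1 and 3 towards SK-UT-1, with 8 inside that range and a median of 0.09. MGLL, which splits monoacylglycerols, was 67.4-fold more abundant in SK-LMS-1 (36.4 to 141). The hormone-sensitive lipase gene LIPE was 8.84-fold more abundant in SK-UT-1 (4.09 to 22.7) and SOAT1, which esterifies cholesterol, 2.83-fold (2.63 to 3.06). Fatty acid oxidation had 2 of 13 measured genes past 2-fold in each direction and 9 within it (median 0.07). CPT1A, which begins oxidation in mitochondria, was 2.06-fold more abundant in SK-LMS-1 (1.80 to 2.37). CPT1B, the muscle form, had 45 counts in SK-UT-1 against 3 in SK-LMS-1, a ratio of 12.2 (3.92 to 61.4), and ECI1 was 2.79-fold more abundant in SK-UT-1 (2.22 to 3.53).

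**Figure D4:**
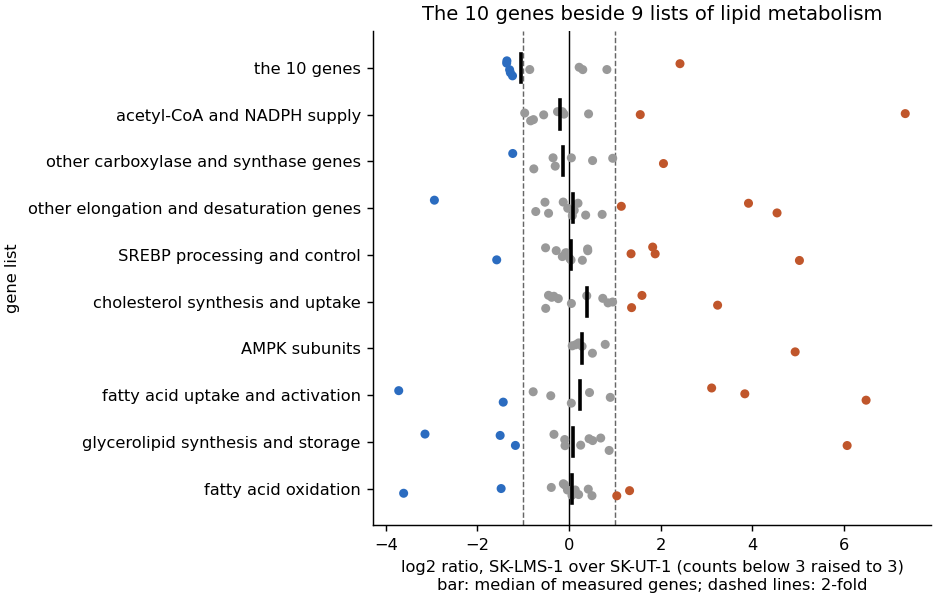
Log2 ratio (SK-LMS-1 / SK-UT-1) of each measured gene in the set of 10 and in 9 lists of lipid metabolism, with the median as a bar and 2-fold as dashed lines (orange, past 2-fold towards SK-LMS-1, blue, towards SK-UT-1). Counts below 3 were raised to 3. The median of the 10 genes lies at -1.04 and those of the 9 lists between -0.20 and 0.39.

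Several of the 10 genes share a chromosome, which did not enter their choice. ACLY, ACACA, FASN and SREBF1 all lie on chromosome 17, and all were higher in SK-UT-1. Of the 866 measured genes of that chromosome, 233 (26.9%) passed 2-fold towards SK-UT-1 and 124 (14.3%) towards SK-LMS-1, with a median log2 ratio of -0.33. Measured genes within 1 Mb of each of these 4 genes had medians between -0.78 and -0.49. ACLY lay below its 45 neighbours' median of -0.78 but above 14 of them, and ACACA above 7 of 19. FASN was above 12 of 52 and SREBF1 above 3 of 23. Chromosome 22, which holds SREBF2, leaned the same way although SREBF2 was higher in SK-LMS-1. Of its 349 measured genes, 108 (30.9%) passed 2-fold towards SK-UT-1 and 23 (6.59%) towards SK-LMS-1, with a median of -0.54. The medians of chromosomes 4, 10 and 11, which hold the remaining genes of the 10, were -0.12, -0.04 and 0.17. The part of gene copy number in these values was not tested.

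SREBF2 and ELOVL6 differed from their surroundings most. The 39 neighbours of SREBF2 had a median of -0.78, towards SK-UT-1, and 16 of them passed 2-fold that way, while SREBF2 itself stood at 0.83, above 37 of them. ELOVL6, at 2.42, lay above all 7 of its measured neighbours, whose median was -0.02. FADS2 lay at -1.30, above 8 of its 67 neighbours, and FADS1 at 0.30, above 46 of 55. Their neighbours had nearly the same medians, -0.20 and -0.19, since the windows share most genes. SCD5 lay above 4 of 16 neighbours (median -0.66) and SCD above 18 of 24 (median -0.14).

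**Figure D5:**
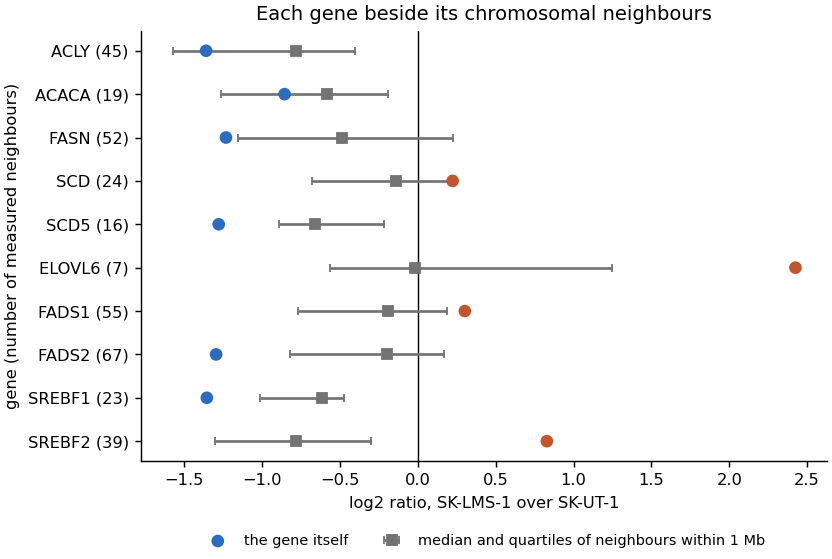
Log2 ratio (SK-LMS-1 / SK-UT-1) of each of the 10 genes (circles, orange above 0, blue below 0) beside the median and quartiles of measured genes within 1 Mb (grey squares), 1 library per line. SREBF2 at 0.83, ELOVL6 at 2.42, FADS1 at 0.30 and SCD at 0.22 lie above the upper quartile of their neighbours, and FADS2, SREBF1, SCD5 and FASN below the lower quartile.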

How the data were processed

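Gene expression was measured in 1 library each of SK-LMS-1 and SK-UT-1 under DMSO. The authors deposited raw counts per gene, made with featureCounts 2.0.1 on hg38, per the file headers, as fragments over exons with strand setting 1. A fragment on exons of more than 1 gene entered the count of every such gene, and no option for fragments aligned to several places is recorded. The aligner used was not given in the sources used here. Exon lengths (other values) are merged exon bases from the coordinates of the table. For a gene listed on more than 1 sequence, only the exons of 1 chromosome copy were used. ACACA thus had 11379 bases, where the length column of the table gives 22759. In the table, 2 further count columns match neither sample and were not used.

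Counts were scaled with edgeR 4.0.16 (TMM factors 0.949 and 1.05) in R 4.3.3, and DESeq2 1.42.0 size factors were an alternative. Measured genes reached 1 CPM in at least 1 library, which is 6.55 counts (SK-LMS-1) or 8.05 counts (SK-UT-1). Counts below 3 were raised to 3 for ratios, and exact intervals used the counts as deposited. Computations used Python 3.11.15 with scipy 1.17.1 and were tested on simulated data. Amplified reads are not independent molecules, so intervals and floors cover counting error only. Names outside the 10 genes follow a rule of up to 2 per list and direction, past 2-fold and at 5 CPM or above. FADS3 and TMEM258 were added to these, as was PRKAA1 for its place beside PRKAA2. Some genes that the rule names are not reported here. Promoter motifs were chosen with the lists. The members and lists were chosen with earlier results of these data known, and the comparisons by chromosome and neighbours were added after the values were seen. Alternatives were other scalings, filters, floors, size rules and no length correction.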

Additional observations from a re-analysis of the deposited data

How the results depend on the processing

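No paired analysis was possible because each line has 1 library and the labels carry no replicate numbers, and no replicate could be left out. None of the 10 ratios changed direction under 4 other scalings. A scaling shifts all ratios alike, here by no more than -0.15. The ratio nearest to no difference was 0.22 (SCD), so no direction could change. A floor of 1 count could not alter the ratios either, since the lowest count of the 10 genes was 53. Against TMM, library totals shifted every log2 ratio by -0.15, the upper quartile by -0.13, and totals without the 10 most abundant genes of either library by -0.15. In that order of settings, ACLY came to -1.51, -1.49 and -1.51, ACACA to -1.01, -0.99 and -1.01, FASN to -1.38, -1.37 and -1.38, and SCD to 0.071, 0.089 and 0.074. The median became -1.20, -1.18 and -1.19, and -1.05 with DESeq2 size factors. ACACA thus passed 2-fold, for 6 genes higher in SK-UT-1, with totals and with the trimmed totals. With totals 3122 of 14442 measured genes passed 2-fold towards SK-UT-1, the median of all measured genes was -0.15, and the share of calls towards SK-LMS-1 was 47.4%, where TMM gave 54.5%. A 1.5-fold rule gave 2 genes higher in SK-LMS-1, SREBF2 and ELOVL6, and a 4-fold rule left 0 higher in SK-UT-1. Without length correction the shares in SK-UT-1 were 11.6% for SCD5, 60.1% for FADS1 and 57.9% for SREBF1. Of 83 alternative values, the other 62 stayed within the interval or 1.5 times the count. They include the values under other floors and filters, which could not move because all 10 genes lay above them. Depth limits SCD5 most, at 53 counts in SK-LMS-1.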
